A study of Homo sapiens with 27 samples.

Results

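The genes described here encode the enzymes that hydroxylate and crosslink fibrillar collagen: the lysyl oxidases LOX, LOXL1, LOXL2, LOXL3 and LOXL4, the lysyl hydroxylases PLOD1, PLOD2 and PLOD3, and the catalytic subunits P4HA1 and P4HA2 of prolyl 4-hydroxylase. They were taken by gene symbol from the count tables, where 10 of 55882 symbols matched. The study asked which genes depend on the matrix metalloproteinase MMP-2 while U2OS cells, a human osteosarcoma line, expand in culture. Poly(A) RNA was sequenced from 3 stable lines at 3 densities, with 3 libraries in each of the 9 groups and 27 libraries in all. The control line, labelled WT, was not untransduced: it carried the blank pLKO.1 vector. MMP2sh1 (MMP2KD_23) and MMP2sh2 (MMP2KD_26) carried a pLKO.1 vector with 1 of 2 different MMP2 shRNAs. Each line was a lentivirally transduced, puromycin-selected population, so that line, hairpin and selection cannot be told apart. Cells were harvested at day -2 (Proliferating in the labels, called subconfluent here), day 0 (Confluent) or day 2 (OverConfluent), so that density and days in culture cannot be told apart either. The study describes the libraries of a group as independent biological replicates.

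Procollagen chains are modified in the endoplasmic reticulum before they fold. Prolyl 4-hydroxylase converts proline to 4-hydroxyproline, which stabilises the triple helix, and lysyl hydroxylases convert lysine to hydroxylysine, the acceptor for sugars and the precursor of the more stable crosslinks. After secretion and propeptide removal, the copper-dependent lysyl oxidases oxidise lysine and hydroxylysine in collagen and elastin to aldehydes, from which covalent crosslinks form. P4HA1, P4HA2, PLOD1, PLOD2 and LOX are among the known transcriptional targets of hypoxia-inducible factors (HIF).

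Between 33580129 and 59374327 counts per library fell on genes, and all 10 genes were measured well above the counting limit: the fewest counts of any of them in any library was 416, for LOXL3. MMP2 mRNA was lower in both knockdown lines at every density, by 2.34 to 2.53 on the log2 scale in MMP2sh1 and by 0.70 to 1.06 in MMP2sh2, so the 2 hairpins differed in strength. Of the osteoblast lineage markers, SPARC, COL1A1 and RUNX2 were present, with lowest group means of 1198, 1107 and 32.9 counts scaled to the size of each library (CPM), whereas IBSP had no count in any library and SP7 and BGLAP stayed below 0.3 CPM. Of the epithelial markers the keratin genes KRT8 and KRT18 were present, at 236 to 551 and 112 to 178 CPM, and EPCAM, CDH1 and KRT19 had highest group means of 6.03, 1.67 and 0.135 CPM. The leukocyte markers PTPRC and CD14 had highest group means of 1.18 and 0.352 CPM, with CD3E and LYZ below 0.1 CPM in every group. Of the endothelial markers VWF lay between 2.13 and 4.34 CPM, and CDH5 and KDR reached at most 0.432 and 0.291 CPM. These are bulk libraries, in which fewer cells expressing a gene and less RNA per cell cannot be told apart.

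The upstream windows of 4 members are shown because the results below turn on P4HA1 and P4HA2, which moved in opposite directions with density, LOX, which fell with density in every line, and PLOD2, which was lower in MMP2sh1 at every density. Each is the 250 bases before the annotated start in RefSeq (GRCh38.p14), written 5′ to 3′ on the gene's strand. Capitals mark the core letters of the HIF response element, ACGTG or GCGTG, on either strand (CACGT or CACGC when read on the opposite strand).
P4HA1, chr10:73096867-73097116, minus strand: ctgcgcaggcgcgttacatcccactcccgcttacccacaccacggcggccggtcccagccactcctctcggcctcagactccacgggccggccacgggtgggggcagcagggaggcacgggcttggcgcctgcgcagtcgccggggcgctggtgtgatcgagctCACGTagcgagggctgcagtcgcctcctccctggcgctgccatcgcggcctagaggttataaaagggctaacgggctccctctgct
P4HA2, chr5:132227092-132227341, minus strand: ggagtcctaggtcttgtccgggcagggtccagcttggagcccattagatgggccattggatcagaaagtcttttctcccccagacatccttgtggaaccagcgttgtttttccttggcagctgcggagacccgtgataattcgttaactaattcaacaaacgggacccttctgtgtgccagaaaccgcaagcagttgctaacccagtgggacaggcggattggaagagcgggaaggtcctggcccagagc
LOX, chr5:122078260-122078509, minus strand: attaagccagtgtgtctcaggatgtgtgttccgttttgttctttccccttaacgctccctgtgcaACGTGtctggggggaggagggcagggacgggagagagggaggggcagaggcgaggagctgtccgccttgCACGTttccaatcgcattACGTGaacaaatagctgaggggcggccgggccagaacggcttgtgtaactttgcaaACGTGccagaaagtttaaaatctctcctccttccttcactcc
PLOD2, chr3:146161185-146161434, minus strand: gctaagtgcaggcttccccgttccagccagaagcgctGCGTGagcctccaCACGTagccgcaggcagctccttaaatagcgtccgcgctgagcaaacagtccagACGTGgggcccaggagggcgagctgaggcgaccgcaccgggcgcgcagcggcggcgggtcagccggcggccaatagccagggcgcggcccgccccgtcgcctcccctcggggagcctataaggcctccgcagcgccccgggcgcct
The P4HA1 window held 1 match, the P4HA2 window 0, the LOX window shown 4 and the PLOD2 window 3. RefSeq gives 2 further windows for LOX, which overlap each other and held 2 matches each. Among 35116 RefSeq promoter windows of this length, 43.2% held at least 1 match, so a single match is common. How many windows held several matches was not counted, so the numbers for LOX and PLOD2 have no such comparison. Of the other members, PLOD1 held 2 matches (both GCGTG), and LOXL1, LOXL4 and PLOD3 held 0, and the 2 windows of LOXL3 held 0 and 1. LOXL2 is named only. A match is a description of the letters and not evidence of binding.

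Per kilobase of the canonical transcript (CPM per kb), the scale on which different genes can be compared, PLOD1 was the most abundant member in control cells at every density, at 79.8 ± 2.05 in subconfluent, 83.4 ± 3.76 in confluent and 109 ± 3.46 in overconfluent cells (SD, n = 3). In subconfluent MMP2sh2 cells LOXL2 stood at 79.5 ± 3.87 and PLOD1 at 78.2 ± 4.91 CPM per kb. LOXL3 was the least abundant in subconfluent and confluent control cells, at 3.91 ± 0.496 and 5.29 ± 0.518 CPM per kb, whereas in overconfluent control cells it stood at 10.3 ± 0.0729, above LOX at 7.87 ± 0.144. P4HA1 and P4HA2 lay between 11.5 and 24.1 CPM per kb in control cells, and LOX between 7.87 and 14.7. Over all 9 groups the widest range of group means belonged to LOXL3, 3.06-fold between its lowest and highest group, followed by LOXL1 at 2.50-fold and LOXL2 at 2.38-fold. PLOD3 had the narrowest, 1.35-fold. When the 9 groups were ordered by mean level, between 4 (LOXL3 and P4HA1) and 7 (PLOD1 and PLOD3) of the 8 pairs of neighbouring groups overlapped in their libraries.

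**Figure D1:**
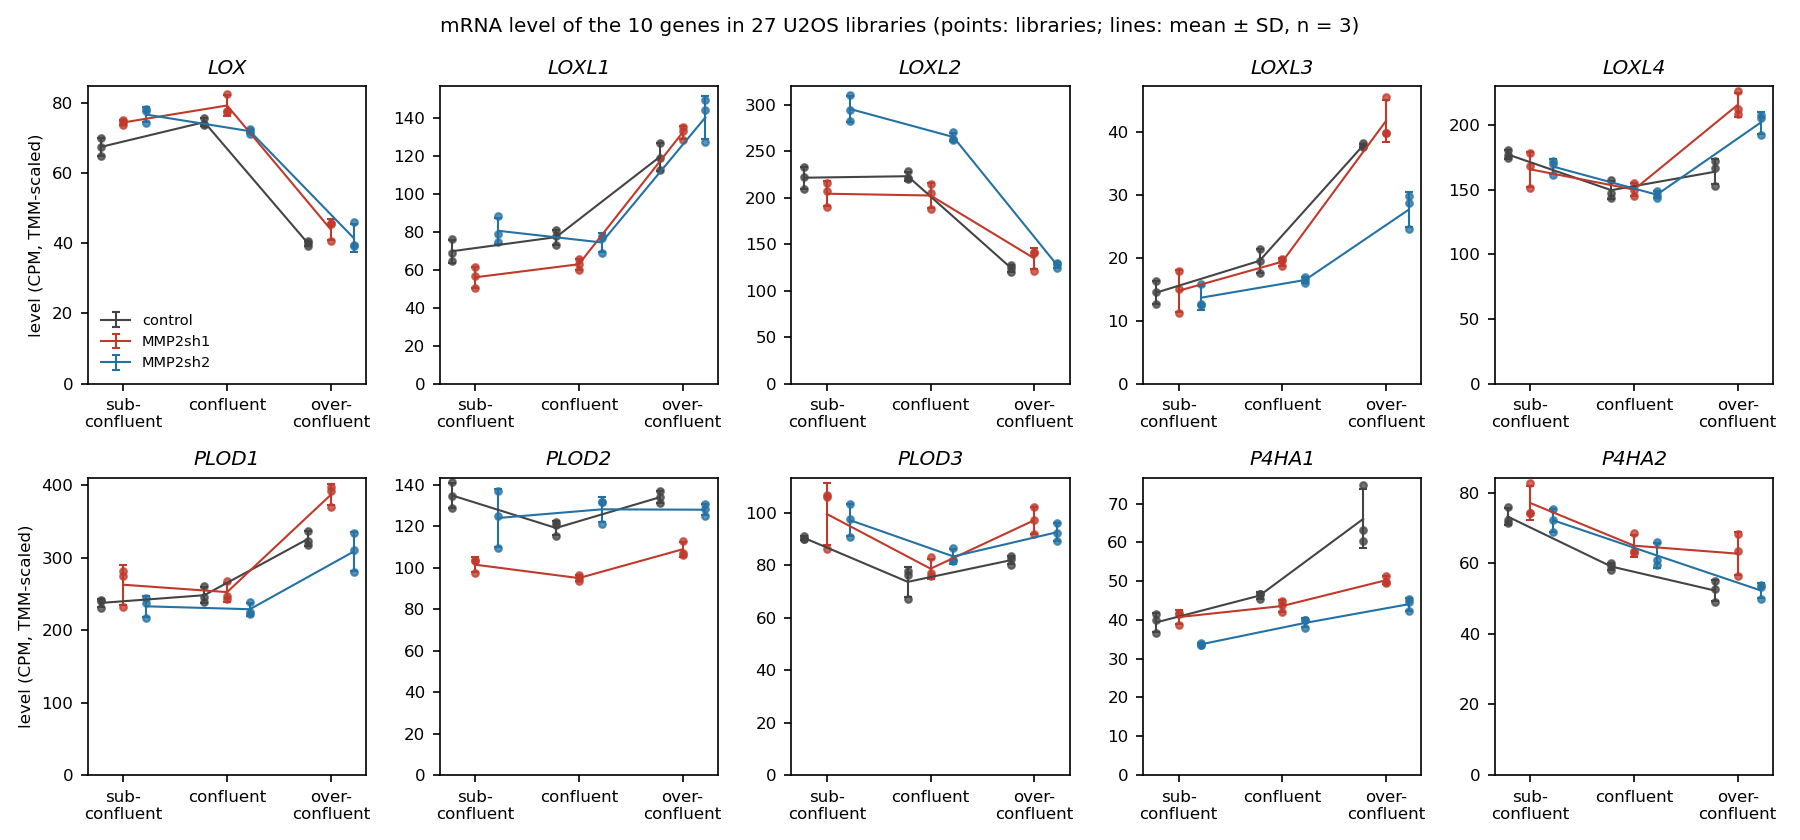
Level of each gene (vertical axis, CPM after TMM scaling over all 27 libraries) at the 3 densities (horizontal axis) in control (grey), MMP2sh1 (red) and MMP2sh2 (blue) cells; points are libraries, and lines and bars give the mean ± SD of 3. P4HA1 rises most steeply in control cells, from 39.3 to 66.0 CPM, and PLOD2 in MMP2sh1 lies below both other lines at every density.

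Within the prolyl hydroxylases and within the lysyl oxidases, members moved in opposite directions with density. From subconfluent to overconfluent, 8 of 10 members changed in control cells, 4 higher and 4 lower. Of all genes tested 56.8% changed there, 28.1% higher and 28.6% lower. In MMP2sh1, 8 of 10 members changed (5 higher and 3 lower, against 54.9% of all genes, 27.3% higher and 27.7% lower), and in MMP2sh2 also 8 of 10 (5 higher and 3 lower, against 54.7%, 27.7% higher and 27.1% lower). The median log2 difference over the members was -0.06 in control, 0.20 in MMP2sh1 and 0.16 in MMP2sh2 cells, against 0.03, 0.04 and 0.05 over all genes tested. LOX, LOXL2 and P4HA2 were lower and LOXL1, LOXL3, PLOD1 and P4HA1 higher in all 3 lines. All calls were made with edgeR's quasi-likelihood test at a Benjamini-Hochberg adjusted p below 0.05 over all genes tested, and differences are log2 fold changes ± standard error.

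The 2 catalytic subunits of prolyl 4-hydroxylase diverged. P4HA1 (chr10:74766975-74856732, minus strand, hg19) stood at 36.6, 39.9 and 41.5 CPM in the subconfluent control libraries and at 60.3, 63.2 and 74.7 CPM in the overconfluent ones. The groups did not overlap, which held for 62.0% of all genes tested in this comparison. The highest of the overconfluent libraries stood apart from the other 2. The difference was 0.76 ± 0.07 on the log2 scale (edgeR quasi-likelihood test, adjusted p = 1.05e-09), a fold of 1.69, and 0.66 without that library. P4HA2 (chr5:131525840-131631008, minus strand, hg19) went the other way, from 72.4, 71.4 and 76.1 to 49.1, 52.8 and 55.0 CPM. Its difference was -0.48 ± 0.06 (adjusted p = 9.08e-08), with every overconfluent library below every subconfluent one. The ratio of P4HA1 to P4HA2, both per kilobase, therefore went from 0.889 ± 0.0464 in subconfluent to 1.30 ± 0.0303 in confluent and 2.09 ± 0.141 in overconfluent control cells (SD, n = 3). In MMP2sh1 the same ratio went from 0.876 ± 0.0453 to 1.11 ± 0.0869 and 1.33 ± 0.125, and in MMP2sh2 from 0.775 ± 0.0413 to 1.05 ± 0.0861 and 1.39 ± 0.00638. The overconfluent ranges of both knockdown lines, 1.21 to 1.46 and 1.39 to 1.40, lay below the control range of 1.98 to 2.25. With 3 libraries against 3, an exact permutation test of this ratio could not give a p below 0.10, so none is quoted.

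Among the lysyl hydroxylases only PLOD1, which modifies lysines of the collagen helix, rose with density in every line. In control cells it went from 231, 242 and 240 CPM in subconfluent to 318, 323 and 337 CPM in overconfluent libraries, without overlap (62.0% of all genes tested). The difference was 0.46 ± 0.05 in control, 0.55 ± 0.07 in MMP2sh1 and 0.41 ± 0.06 in MMP2sh2 (edgeR, adjusted p = 2.02e-09, 2.34e-07 and 1.53e-06). PLOD2, whose product hydroxylates lysines of the collagen telopeptides, did not pass the test in any line from subconfluent to overconfluent: the differences were -0.00, 0.10 and 0.05, with 95% intervals of -0.10 to 0.09, -0.02 to 0.22 and -0.08 to 0.18. It was however lower at confluence in control cells by 0.17 ± 0.05 (adjusted p = 0.00617) and then higher again by 0.19 ± 0.05 (adjusted p = 0.00202). Without subconfluent control replicate 2 the first of these had an adjusted p of 0.0621. PLOD3, which also carries glycosyltransferase activity, showed the same dip, -0.29 ± 0.06 to confluence (adjusted p = 0.000146) and 0.18 ± 0.06 after it (adjusted p = 0.0142). Its second step was lost without confluent control replicate 1 (0.11, adjusted p = 0.167) or overconfluent control replicate 2 (0.17, adjusted p = 0.0505), and its net difference of -0.14 ± 0.05 (adjusted p = 0.0251) was lost without subconfluent replicate 1 or 2 or overconfluent replicate 1 (adjusted p = 0.0556, 0.0704 and 0.063). Both were also lost in an edgeR fit on all 27 libraries (adjusted p = 0.0632 and 0.0704). The net difference was lost without a filter on low counts too (adjusted p = 0.0576).

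In the lysyl oxidase family LOX and LOXL2 fell with density while LOXL1 and LOXL3 rose. LOX (chr5:121398890-121414108, minus strand, hg19), the founding member of the family, stood at 70.0, 64.8 and 67.5 CPM in subconfluent and at 40.6, 40.1 and 39.2 CPM in overconfluent control libraries. The groups did not overlap (62.0% of all genes tested), and the difference was -0.75 ± 0.06 (edgeR, adjusted p = 2.3e-11). LOXL2, a scavenger-receptor type lysyl oxidase that acts on basement membrane collagen, went from 210, 233 and 222 CPM to 127, 125 and 120 CPM, a difference of -0.83 ± 0.05 (adjusted p = 8.66e-14). LOXL1, which crosslinks elastin, went from 64.5, 68.8 and 76.4 CPM to 113, 127 and 119 CPM, a difference of 0.78 ± 0.06 (adjusted p = 1.46e-11). LOXL3 (chr2:74759385-74782817, minus strand, hg19) had the largest change of the 10 genes in control cells, from 12.6, 16.2 and 14.5 CPM to 38.2, 37.7 and 37.6 CPM. That was 1.40 ± 0.09 on the log2 scale, or 2.64-fold (adjusted p = 1.31e-13). On the GENCODE annotation used here, 25.5% of the exon bases of LOXL3 are shared with DOK1 or HTRA2, and 9.21% of those of LOXL1 with the antisense gene LOXL1-AS1. Counting without strand assigns a read in such bases to neither gene, so the levels of both are uncertain.

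The falls of LOX and LOXL2 came after confluence. From subconfluent to confluent, 8 of 10 members changed in control cells, 4 in each direction (35.5% of all genes tested, 16.4% higher and 19.1% lower), but LOX was 0.15 ± 0.05 higher (edgeR, adjusted p = 0.0284) and LOXL2 did not pass the test (0.02, 95% interval -0.07 to 0.11). From confluent to overconfluent all 10 members changed, 7 higher and 3 lower (41.4% of all genes tested, 21.3% higher and 20.1% lower). LOX then fell by 0.88 ± 0.06 (adjusted p = 1.33e-13) and LOXL2 fell by 0.83 ± 0.05 (adjusted p = 4.23e-15). P4HA2 moved earlier, by -0.30 ± 0.05 to confluence (adjusted p = 5.33e-05) and -0.15 ± 0.06 after it (adjusted p = 0.0383). The smaller steps rested on single libraries, and some also on the choice of fit. Without subconfluent control replicate 2 the count to confluence was 5 of 10 in place of 8, with LOX at 0.12 (adjusted p = 0.131), LOXL1 at 0.15 (adjusted p = 0.117) and PLOD2 at -0.14 (adjusted p = 0.0621). LOX also lost its call without confluent control replicate 1 or 3 (adjusted p = 0.0663 and 0.0865), and LOXL1, which had been called at 0.15 ± 0.06, without subconfluent replicate 1 or confluent replicate 1 or 3 (adjusted p = 0.293, 0.131 and 0.19). For the step from confluent to overconfluent the count lay between 7 and 10 with 1 library left out. Without confluent control replicate 1 or overconfluent control replicate 2, the calls of LOXL4, PLOD3 and P4HA2 were all lost there. The later step of P4HA2 was lost without any 1 of 5 of the 6 libraries, with adjusted p between 0.0638 and 0.181, and without a filter on low counts (adjusted p = 0.0726). In an edgeR fit on all 27 libraries the steps to confluence of LOX and LOXL1 were lost (adjusted p = 0.0613 and 0.118). With DESeq2 that of LOXL1 was lost (adjusted p = 0.0795).

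LOXL4, which is related to LOXL2 and LOXL3, differed between lines. In control cells it went from 177, 175 and 181 CPM at low density to 144, 148 and 158 at confluence and 172, 167 and 153 CPM after it. The net difference of -0.11 ± 0.05 did not pass the test (edgeR, adjusted p = 0.0647), though it did without overconfluent control replicate 1 (-0.15, adjusted p = 0.0181). It was also called by DESeq2 (-0.12, adjusted p = 0.0463) and with median-of-ratios scaling (-0.12, adjusted p = 0.0483). The later step of 0.15 ± 0.05 (adjusted p = 0.0166) was lost without confluent replicate 1 or overconfluent replicate 1 or 2 (adjusted p = 0.104, 0.0786 and 0.0583). That step was also lost in an edgeR fit on all 27 libraries (adjusted p = 0.0547). In MMP2sh1 LOXL4 rose from 151, 168 and 178 CPM to 226.3, 213 and 209 CPM (0.38 ± 0.07, adjusted p = 3.24e-05), and in MMP2sh2 from 170, 162 and 172 CPM to 208, 205 and 192 CPM (0.27 ± 0.06, adjusted p = 0.000199).

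**Figure D2:**
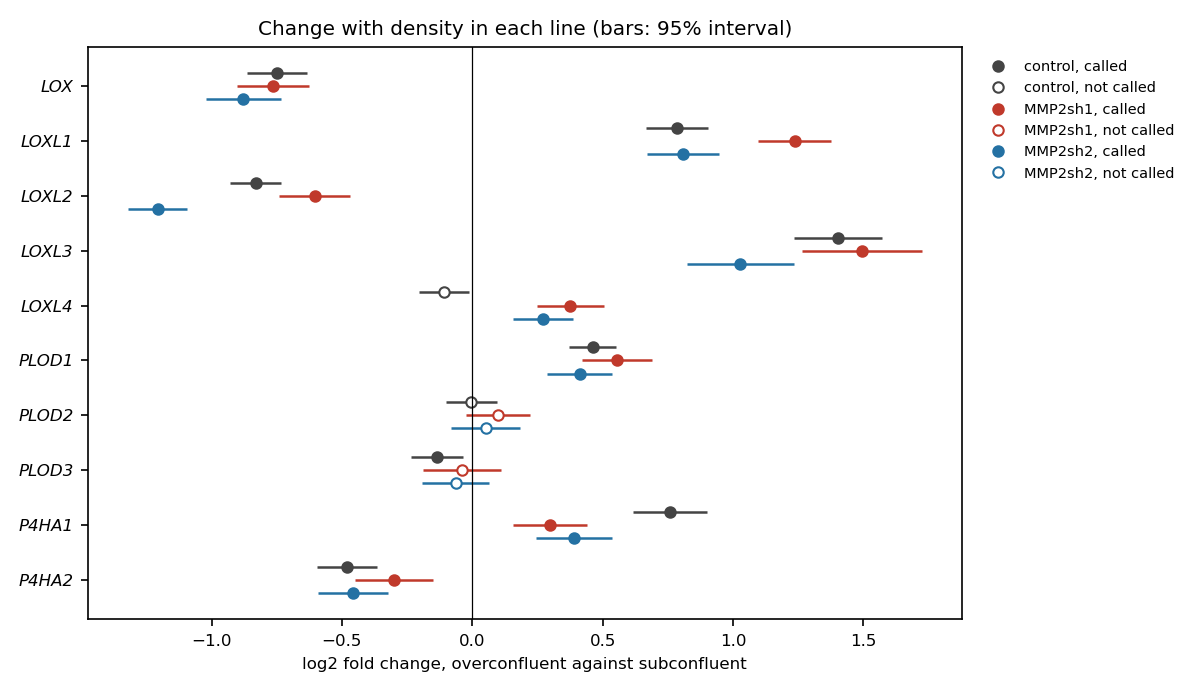
Log2 fold change from subconfluent to overconfluent (horizontal axis) of each gene (vertical axis) in control (grey), MMP2sh1 (red) and MMP2sh2 (blue) cells; bars are 95% intervals and filled points passed the test. LOXL3 lies at 1.40, 1.49 and 1.03, LOX at -0.75, -0.76 and -0.88, and the control point of P4HA1, at 0.76, lies to the right of those of the knockdown lines, at 0.30 and 0.39.

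The makeup of the lysyl oxidase family was read as shares of its summed level. Summed over the 5 lysyl oxidases, the level per kilobase was 156 ± 5.06 in subconfluent, 155 ± 4.37 in confluent and 148 ± 4.37 CPM per kb in overconfluent control cells (SD, n = 3). Within that sum LOXL2 held 38.2% ± 1.34 at low density and 22.5% ± 0.518 after confluence, whereas LOXL1 held 19.1% ± 1.11 and 34.4% ± 1.82. LOXL4 held 31.7% ± 0.977 and 30.8% ± 1.31. LOX itself was a small part, 8.53% ± 0.575 and 5.32% ± 0.113. In both knockdown lines LOXL1 also passed LOXL2 after confluence, at 32.7% against 21.0% in MMP2sh1 and 36.0% against 20.7% in MMP2sh2. The LOXL4 share there was 34.7% ± 0.478 in MMP2sh1 and 33.8% ± 0.432 in MMP2sh2. These shares were not tested. In the lysyl hydroxylases, PLOD1 held 54.0% ± 0.821 of the summed level in subconfluent and 62.8% ± 0.896 in overconfluent control cells, and PLOD2 24.3% ± 0.846 and 20.5% ± 0.79.

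**Figure D3:**
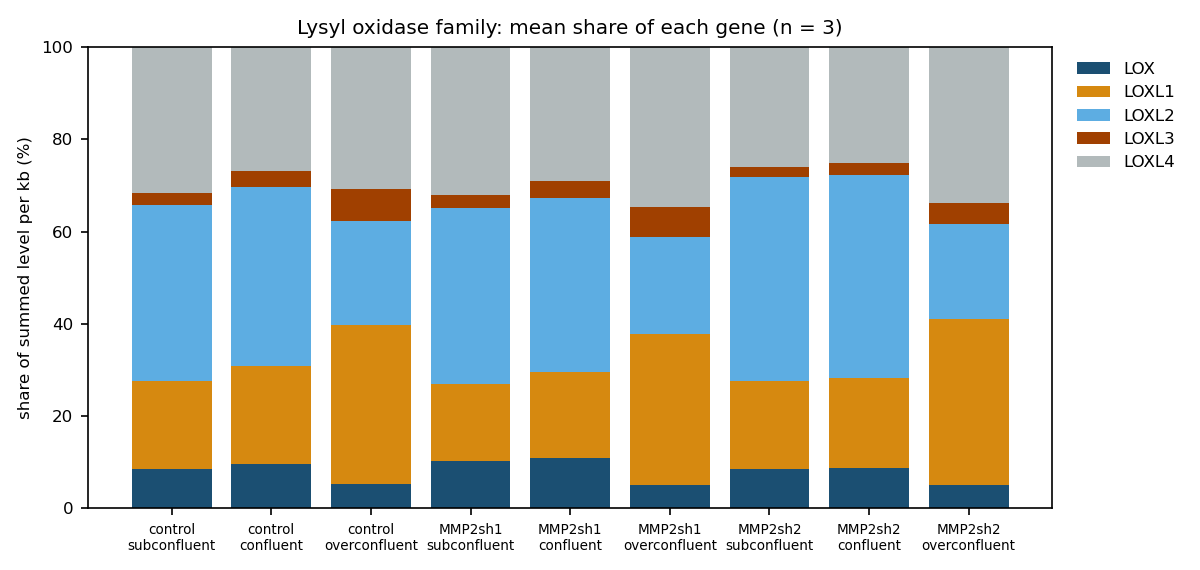
Mean share (vertical axis, percent of the summed CPM per kb of the 5 lysyl oxidases, n = 3 libraries) held by each gene in the 9 groups (horizontal axis). The LOXL1 share grows from 19.1% to 34.4% and the LOXL2 share shrinks from 38.2% to 22.5% between subconfluent and overconfluent control cells.

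In overconfluent cells P4HA1 was lower and LOXL4 higher than in control in both knockdown lines, and PLOD2 was lower in MMP2sh1 at every density. In subconfluent MMP2sh1 cells 2 members were called, both lower, where 11.6% of all genes tested were called (5.42% higher and 6.14% lower). In confluent MMP2sh1 cells 3 were called, all lower, against 16.8% of all genes (8.26% higher and 8.58% lower), and in overconfluent cells 6, of which 4 were higher and 2 lower, against 14.8% (7.68% higher and 7.11% lower). In subconfluent MMP2sh2 cells 2 were called, 1 higher and 1 lower, against 11.0% of all genes (4.71% higher and 6.33% lower). In confluent MMP2sh2 cells 3 were called, 1 higher and 2 lower, against 12.9% (7.07% higher and 5.81% lower), and in overconfluent cells 4, of which 2 were higher and 2 lower, against 6.32% (2.89% higher and 3.43% lower). The size of the differences was modest: the median absolute log2 difference over the members was 0.24 in overconfluent MMP2sh1 cells, against 0.16 over all genes, and 0.13 in overconfluent MMP2sh2 cells, against 0.13. The control libraries entered both comparisons, so the values of the 2 lines are not independent and stand side by side. With 1 library left out, the overconfluent count lay between 4 and 7 in MMP2sh1 and between 3 and 5 in MMP2sh2. The low-density counts also moved with single libraries. In subconfluent MMP2sh1 cells the count was 1 without control replicate 3, where LOXL1 was lost. It was 4 without MMP2sh1 replicate 1, where PLOD1 and PLOD3 were called higher. In MMP2sh2 it was 1 without subconfluent control replicate 1 or 2 or without MMP2sh2 replicate 1. In the same subconfluent MMP2sh2 cells LOX and LOXL1 just missed the threshold, at 0.18 (edgeR, adjusted p = 0.0503) and 0.20 (adjusted p = 0.0578): LOX was called without MMP2sh2 replicate 3 (adjusted p = 0.03), and LOXL1 without control replicate 3 or MMP2sh2 replicate 2 (adjusted p = 0.0293 and 0.0443). LOXL1 was also called by DESeq2 (adjusted p = 0.0402) and with the replicate number as a block (adjusted p = 0.0353). It was called too with at least 10 counts required in every library or without a filter on low counts (adjusted p = 0.0412 and 0.035).

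P4HA1 was the prolyl hydroxylase subunit with lower levels in the knockdown lines. In overconfluent cells its level was 60.3, 63.2 and 74.7 CPM in control, 51.4, 49.8 and 49.5 in MMP2sh1 and 44.6, 45.4 and 42.2 CPM in MMP2sh2. All knockdown libraries lay below all control libraries. Of all genes tested, 29.9% in MMP2sh1 and 21.7% in MMP2sh2 had no overlap with control at this density. The difference was -0.40 ± 0.07 in MMP2sh1 and -0.59 ± 0.07 in MMP2sh2 (edgeR quasi-likelihood test, adjusted p = 0.000166 and 9.43e-08), or folds of 0.759 and 0.666. Without overconfluent control replicate 3, the library at 74.7 CPM, the differences were -0.30 (adjusted p = 0.00621) and -0.49 (adjusted p = 2.4e-05). In confluent cells P4HA1 was lower in MMP2sh2 (-0.25 ± 0.06, adjusted p = 0.00603), and in MMP2sh1 the difference was -0.09, with a 95% interval of -0.21 to 0.03. In subconfluent cells the MMP2sh2 difference was -0.22 ± 0.07 (adjusted p = 0.0476). That call was lost when any 1 of the 6 libraries was left out, with differences between -0.27 and -0.18 and adjusted p between 0.0705 and 0.198. P4HA2 was higher in overconfluent MMP2sh1 cells by 0.26 ± 0.07 (adjusted p = 0.0119), with libraries at 63.5, 68.4 and 56.4 CPM against 49.1, 52.8 and 55.0 in control, and this was lost without overconfluent control replicate 1 (0.22, adjusted p = 0.0696) or MMP2sh1 replicate 2 (0.19, adjusted p = 0.135). In MMP2sh2 its difference was -0.00, with a 95% interval of -0.13 to 0.13.

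PLOD2 was the member with the steadiest difference in MMP2sh1. Its level was 135, 141 and 129 CPM in subconfluent control libraries and 104, 103 and 97.4 CPM in those of MMP2sh1. In confluent cells it was 120, 122 and 115 against 96.3, 94.9 and 93.7 CPM, and in overconfluent cells 137, 134 and 131 against 106, 107 and 113 CPM. The groups did not overlap at any density, which held at each for 28.5%, 31.3% and 29.9% of all genes tested. The differences were -0.41 ± 0.06, -0.33 ± 0.05 and -0.30 ± 0.06 (edgeR, adjusted p = 2.18e-05, 2.8e-06 and 0.000233), and all 3 calls held without any 1 library. In MMP2sh2 the differences from control were -0.12, 0.09 and -0.07, with 95% intervals of -0.25 to 0.01, -0.01 to 0.19 and -0.17 to 0.04, none of them called. PLOD1 and PLOD3 were higher in overconfluent MMP2sh1 cells, by 0.24 ± 0.05 (adjusted p = 0.0009) and 0.24 ± 0.06 (adjusted p = 0.00488). The latter was lost without MMP2sh1 replicate 2 (0.20, adjusted p = 0.0603). In MMP2sh2, PLOD3 differed from control by 0.17 (95% interval 0.06 to 0.29, adjusted p = 0.0693) after confluence, and was called without MMP2sh2 replicate 3 (0.20, adjusted p = 0.0228). It was also called there by DESeq2 (adjusted p = 0.0257) and with at least 10 counts required in every library (adjusted p = 0.0472). In confluent MMP2sh2 cells it differed by 0.16 (adjusted p = 0.0513) and was called without control replicate 2 or 3 (adjusted p = 0.0481 and 0.0343). It was called there too with at least 10 counts required in every library or without a filter on low counts (adjusted p = 0.0423 and 0.0397). PLOD1 was -0.13 ± 0.04 in confluent MMP2sh2 cells (adjusted p = 0.0406), a call lost without control replicate 2 or 3 or MMP2sh2 replicate 1 or 3 (adjusted p = 0.0585, 0.216, 0.199 and 0.126). That call was also lost in an edgeR fit on all 27 libraries (adjusted p = 0.261) and without a filter on low counts (adjusted p = 0.0584).

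**Figure D4:**
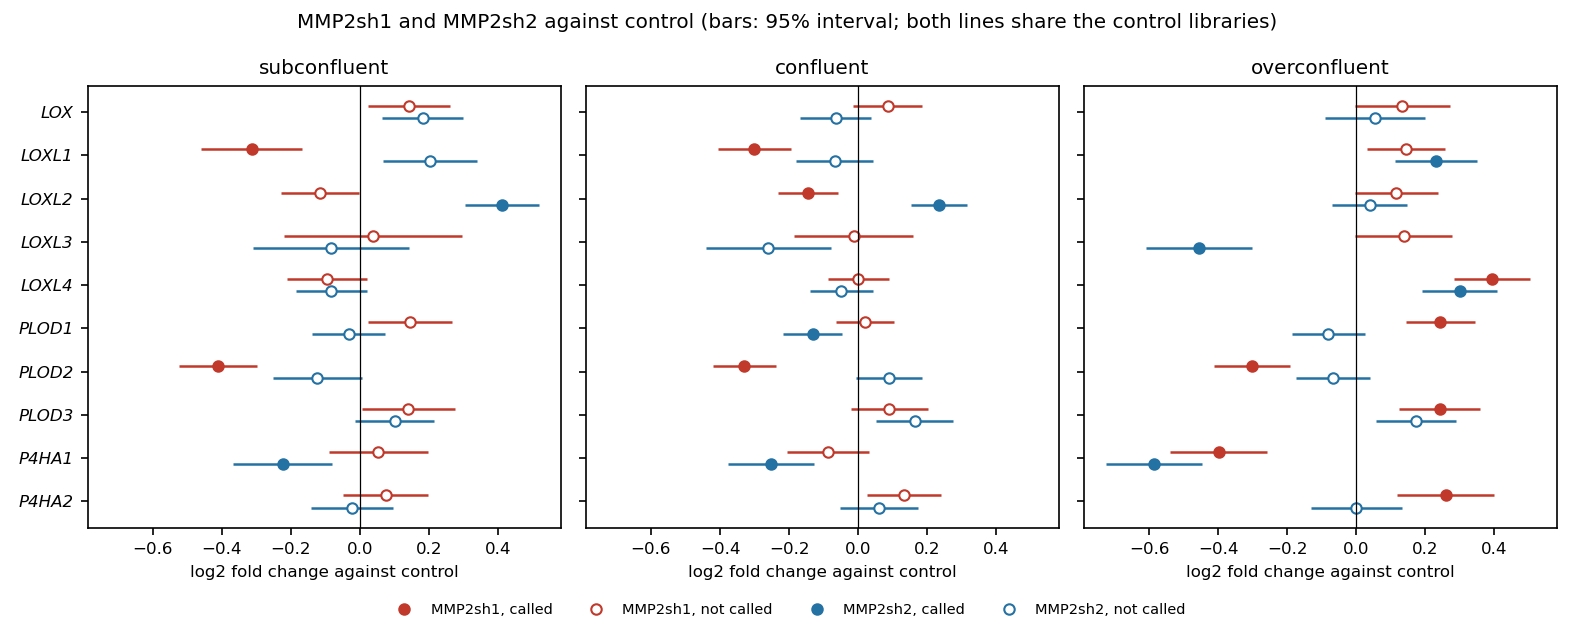
Log2 fold change against control (horizontal axis) of each gene (vertical axis) in MMP2sh1 (red) and MMP2sh2 (blue) cells at the 3 densities (panels); bars are 95% intervals and filled points passed the test. PLOD2 lies left of 0 in MMP2sh1 in each panel, at -0.41, -0.33 and -0.30, and P4HA1 lies at -0.40 and -0.59 in overconfluent cells.

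LOXL4 was the lysyl oxidase called in the same direction in both lines at the same density. In overconfluent cells it stood at 172, 167 and 153 CPM in control, 226.3, 213 and 209 in MMP2sh1 and 208, 205 and 192 CPM in MMP2sh2, without overlap between control and either line (29.9% and 21.7% of all genes tested). The differences were 0.39 ± 0.06 and 0.30 ± 0.06 (edgeR, adjusted p = 6.28e-06 and 0.000198). At lower density they were between -0.10 and 0.00 and none was called. LOXL1 was lower in MMP2sh1 in subconfluent cells (50.3, 56.7 and 61.3 against 64.5, 68.8 and 76.4 CPM in control) and confluent cells (60.0, 63.1 and 65.8 against 78.0, 73.1 and 80.8 CPM), by 0.31 ± 0.07 and 0.30 ± 0.05 on the log2 scale. The adjusted p-values were 0.00543 and 0.000118, and the first was 0.0548 without subconfluent control replicate 3. In overconfluent MMP2sh2 cells LOXL1 was higher by 0.23 ± 0.06 (adjusted p = 0.0119), which was lost without control replicate 1 or 3 or MMP2sh2 replicate 1 or 2 (adjusted p = 0.0917, 0.0681, 0.0987 and 0.121).

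LOXL2 and LOXL3 differed from control mainly in MMP2sh2. LOXL2 stood at 282, 294 and 311 CPM in subconfluent MMP2sh2 libraries, against 210, 233 and 222 in control and 190, 207 and 216 CPM in MMP2sh1. The MMP2sh2 libraries were above all others. Between MMP2sh2 and control 28.6% of all genes tested had no overlap at this density. The difference was 0.41 ± 0.05 in subconfluent and 0.24 ± 0.04 in confluent cells (edgeR, adjusted p = 2.04e-05 and 0.000105), and after confluence 0.04, with a 95% interval of -0.07 to 0.15. In confluent MMP2sh1 cells LOXL2 was lower by 0.15 ± 0.04 (adjusted p = 0.0185), but not without control replicate 3 or MMP2sh1 replicate 1 or 2 (adjusted p = 0.0734, 0.204 and 0.0645). Nor was it called in an edgeR fit on all 27 libraries (adjusted p = 0.0981). LOXL3 was lower in overconfluent MMP2sh2 cells, with 28.7, 29.7 and 24.5 CPM against 38.2, 37.7 and 37.6 in control and 45.6, 39.8 and 39.8 CPM in MMP2sh1. The difference from control was -0.45 ± 0.08 (adjusted p = 7.42e-05), without overlap (21.7% of all genes tested), and in MMP2sh1 it was 0.14 (95% interval -0.00 to 0.28). In confluent MMP2sh2 cells the LOXL3 difference was -0.26 (adjusted p = 0.0581), called without control replicate 3 (-0.33, adjusted p = 0.0254). It was also called with at least 10 counts required in every library (adjusted p = 0.0479). The LOXL2 difference of 0.12 in overconfluent MMP2sh1 cells (adjusted p = 0.226) was called without MMP2sh1 replicate 3 (0.19, adjusted p = 0.0436). LOX was not called against control in either line at any density, with differences between -0.07 and 0.18. The largest of these, in subconfluent MMP2sh2 cells, was called under other settings, with an adjusted p of 0.0176 by DESeq2, 0.0355 in the edgeR fit on all 27 libraries, 0.0436 with median-of-ratios scaling and 0.0398 with at least 10 counts required in every library.

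Since a call in 1 line and not in the other does not show a difference, MMP2sh1 and MMP2sh2 were also compared directly at each density, a comparison added after these values were seen. In subconfluent cells 4 members differed, 1 higher and 3 lower in MMP2sh1, against 10.7% of all genes tested (5.01% higher and 5.69% lower). In confluent cells 6 differed, 3 in each direction, against 18.5% (8.90% higher and 9.62% lower), and in overconfluent cells 4, of which 3 were higher and 1 lower, against 7.86% (4.59% higher and 3.27% lower). PLOD2 was lower in MMP2sh1 than in MMP2sh2 at all 3 densities, by 0.29 ± 0.07, 0.42 ± 0.05 and 0.24 ± 0.06 on the log2 scale (edgeR, adjusted p = 0.0077, 2.19e-08 and 0.00954). The first was lost without MMP2sh2 replicate 2 (adjusted p = 0.113), and the last without replicate 2 of either line (adjusted p = 0.0609 and 0.0577), each of which left 2 called members. LOXL2 differed by -0.53 ± 0.06 and -0.38 ± 0.04 before and at confluence (adjusted p = 9.1e-07 and 1.5e-08), and LOXL1 by -0.52 ± 0.08 and -0.23 ± 0.06 (adjusted p = 3.18e-05 and 0.00323). After confluence LOXL3 was 0.59 ± 0.08 and PLOD1 0.32 ± 0.06 higher in MMP2sh1 (adjusted p = 3.78e-05 and 0.000642). The other calls, LOX, LOXL3 and PLOD1 in confluent, P4HA1 in subconfluent and P4HA2 in overconfluent cells, had differences between 0.15 and 0.27 and were each lost when single libraries were left out, with adjusted p up to 0.218. Those of LOX, LOXL3 and PLOD1 were also lost in an edgeR fit on all 27 libraries (adjusted p = 0.13, 0.189 and 0.132). Without a filter on low counts LOX and LOXL3 were lost (adjusted p = 0.0594 and 0.0771). PLOD1 in subconfluent cells (0.17, adjusted p = 0.116) was called without MMP2sh1 replicate 1 (0.26, adjusted p = 0.0123). It was also called in the edgeR fit on all 27 libraries (adjusted p = 0.0446). Without MMP2sh2 replicate 1, 3 members were called in confluent cells.

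Whether the change with density itself differed between lines was tested as an interaction over 12 libraries (overconfluent against subconfluent, knockdown against control). In MMP2sh1, 3 of 10 members passed (7.40% of all genes tested, 4.52% with a positive and 2.88% with a negative value): LOXL4 by 0.49 ± 0.08, LOXL1 by 0.46 ± 0.10 and P4HA1 by -0.45 ± 0.11 (edgeR, adjusted p = 0.00023, 0.00288 and 0.00696). In MMP2sh2, 3 of 10 passed (4.98%, of which 2.71% positive and 2.28% negative): LOXL4 by 0.38 ± 0.08, LOXL2 by -0.38 ± 0.08 and P4HA1 by -0.37 ± 0.10 (adjusted p = 0.00145, 0.00145 and 0.0337). P4HA1 thus rose 1.69-fold in control, 1.23-fold in MMP2sh1 and 1.31-fold in MMP2sh2 cells. The MMP2sh2 interaction of P4HA1 was lost when any 1 of 8 of the 12 libraries was left out, and was smallest without overconfluent control replicate 3 (-0.26, adjusted p = 0.213). LOXL2 in MMP2sh1 (0.24, 95% interval 0.06 to 0.41) was called only without overconfluent MMP2sh1 replicate 3 (0.31, adjusted p = 0.0284).

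Because P4HA1 is a HIF target, 13 other HIF targets were read in the same fits. From subconfluent to overconfluent, 9 of them rose and 4 fell in control cells (28.1% and 28.6% of all genes tested), with a median log2 difference of 0.80 against 0.03 over all genes. The largest rises were those of CA9, a carbonic anhydrase, at 2.75 ± 0.61, and VEGFA, the angiogenic growth factor, at 1.24 ± 0.06, and the largest falls those of LDHA, lactate dehydrogenase, at -0.93 ± 0.05, and BNIP3, a mitophagy receptor, at -0.75 ± 0.09 (edgeR, adjusted p = 0.000384, 9.67e-16, 1.07e-14 and 1.17e-07). Over all libraries CA9 had only 0 to 76 counts, whereas VEGFA had at least 1460. Among the 12 that could be tested in the knockdown lines, 3 rose and 5 fell in MMP2sh1 (27.3% and 27.7% of all genes tested). In MMP2sh2 2 rose and 5 fell (27.7% and 27.1%). Against control in overconfluent cells, 9 of 13 were lower in MMP2sh1 (7.11% of all genes tested were lower) and 10 of 13 in MMP2sh2 (3.43%), with medians of -0.43 and -0.52, whereas 1 (VEGFA) was higher in MMP2sh1 and 0 in MMP2sh2. In subconfluent and confluent cells at most 2 of the tested HIF targets were called in either direction in either line. Of all genes tested, 4.71% to 8.58% were called in a given direction in these comparisons. LDHA and BNIP3 fell with density in all 3 lines, and the interaction with density was called for both of them in MMP2sh1 (-0.37 ± 0.08 and -0.97 ± 0.15, adjusted p = 0.0036 and 7.36e-05) and in MMP2sh2 (-0.30 ± 0.08 and -0.74 ± 0.13, adjusted p = 0.0176 and 0.00035).

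The overconfluent control libraries were themselves uneven in these genes. The mean log2(CPM + 1) over the 13 genes was 5.05, 5.30 and 5.41 in control replicates 1, 2 and 3, and lay between 4.78 and 4.83 in MMP2sh1 and between 4.74 and 4.77 in MMP2sh2. CA9 stood at 0.369, 0.883 and 1.84 CPM in the same libraries, and P4HA1 was also highest in replicate 3. Without that replicate 8 of 13 were lower in MMP2sh1 (median -0.39) and 8 of 13 in MMP2sh2 (median -0.41), and without replicate 1 the medians were -0.56 and -0.63. The summed CPM of the 13 genes, unlike the mean log2 value, fell with density in control cells. It lay between 2311 and 2477 in subconfluent and between 1597.5 and 1857 in overconfluent control libraries. In overconfluent MMP2sh1 and MMP2sh2 libraries it lay between 1466 and 1508 and between 1390 and 1508. Of the other members named above as HIF targets, PLOD1 rose with density in all 3 lines, as P4HA1 did, but was higher than control in overconfluent MMP2sh1 cells (0.24). P4HA2 and LOX fell with density in all 3 lines, and PLOD2 was called against control in MMP2sh1 and not in MMP2sh2. Whether oxygen or HIF activity had any part in the P4HA1 result was not tested.

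**Figure D5:**
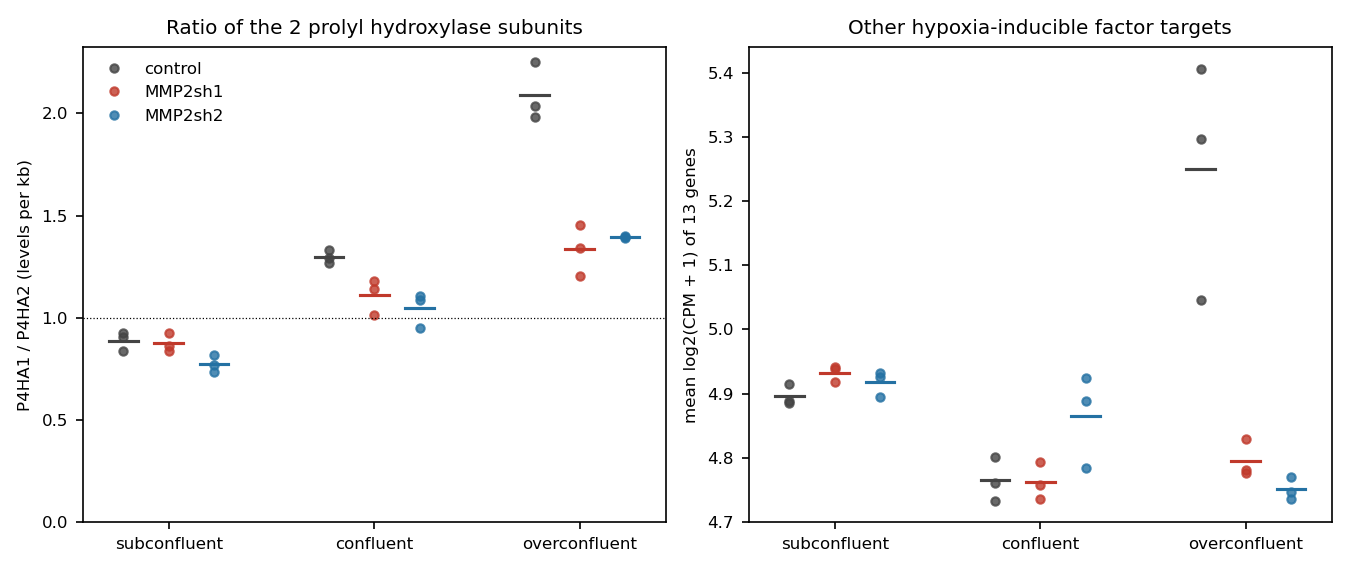
Left, ratio of P4HA1 to P4HA2 (vertical axis, levels per kilobase); right, mean log2(CPM + 1) of 13 other HIF targets (vertical axis, which starts at 4.7), at the 3 densities (horizontal axes) in control (grey), MMP2sh1 (red) and MMP2sh2 (blue) libraries; points are libraries and bars group means. The overconfluent control libraries stand above those of both knockdown lines in both panels, at ratios of 1.98 to 2.25 and means of 5.05 to 5.41.

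The partners of these enzymes showed no common direction with density in control cells. Of 15 genes for collagen folding and modification, among them the P4HB subunit, the prolyl 3-hydroxylases and the chaperone SERPINH1, 6 rose and 4 fell with density in control cells (median 0.00). Of all genes tested 28.1% rose and 28.6% fell there. FKBP10 and PPIB, both peptidyl-prolyl isomerases, rose by 0.44 and 0.46, and the collagen galactosyltransferase COLGALT1 and the ion channel TMEM38B fell by 0.33 and 0.28 on the log2 scale. Against control in subconfluent cells 4 were higher and 0 lower in MMP2sh1 (5.42% and 6.14% of all genes tested). In MMP2sh2 5 were higher and 2 lower (4.71% and 6.33%). In confluent cells 0 were higher and 2 lower in MMP2sh1 (8.26% and 8.58%), and 1 and 1 in MMP2sh2 (7.07% and 5.81%). After confluence 4 were higher and 1 lower in MMP2sh1 (7.68% and 7.11%), and 0 were higher and 2 lower in MMP2sh2 (2.89% and 3.43%). Of 13 genes for procollagen and lysyl oxidase processing and delivery, 12 were tested in control cells, where 5 rose and 5 fell with density (28.1% and 28.6% of all genes tested). ADAMTS14, a procollagen N-proteinase, and FN1, the fibronectin gene, rose by 4.22 and 2.07, and PCOLCE2 and TLL2 fell by 1.92 and 0.83. Over all libraries ADAMTS14 had 1 to 549 and TLL2 43 to 271 counts, whereas FN1 had at least 14573. PCOLCE, the enhancer of procollagen C-proteinase, was lower in both lines in confluent (-0.22 and -0.25) and overconfluent cells (-0.19 and -0.20).

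Of 14 collagen and elastin substrate genes, 12 were tested in control cells, where 6 rose and 3 fell with density (28.1% and 28.6% of all genes tested). COL11A2 and COL11A1 rose by 1.94 and 1.49, and COL5A3 and COL27A1 fell by 3.71 and 0.42. Over all libraries COL11A2 had only 24 to 397 and COL5A3 14 to 443 counts. COL1A2 had at most 28 and ELN at most 10 counts in any library, although COL1A1 had at least 37942. COL3A1, the fibrillar type III collagen chain, was the substrate lower in both lines at every density. Its level in overconfluent cells was 81.1 ± 3.54 CPM in control, 36.1 ± 3.13 in MMP2sh1 and 46.4 ± 6.63 CPM in MMP2sh2 (SD, n = 3). The differences from control were -1.79, -1.66 and -1.17 in MMP2sh1 and -0.40, -0.82 and -0.81 in MMP2sh2, from subconfluent to overconfluent cells (edgeR, adjusted p = 6.05e-12, 1.78e-18, 3.31e-13, 0.00205, 2.1e-12 and 6.63e-11).

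Across the 9 group means, as a description with no test, the members paired by density pattern: LOXL3 with PLOD1 (Pearson r = 0.94) and LOX with LOXL2 (r = 0.92). The genes most like LOXL3 among 15133 with a mean of at least 1 CPM were TRIM38, AP4M1 and NGFR (r = 0.99 each). Those most like LOXL1 were DNAAF3, TNXB and RP11-212P7.2 (r = 0.99 each), and among those most like LOXL2 were RP11-368M16.7 and NADK (r = 0.98 each). All of these points share libraries and the density series.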

How the data were processed

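Poly(A) RNA of 27 U2OS libraries was sequenced as paired ends from NEBNext Ultra II libraries. The tools that the labels give for the work of the authors are Trim Galore 0.6.0 for trimming, STAR 2.7.3a for alignment (genome hg19) and HTSeq 2.0.0 for counting; the study's methods state union mode on exons without strand. The annotation version is not given in the sources used here. What was deposited is 1 count table per library, unnormalised, with gene symbols as row names. The 5 summary lines that name no gene (16.8% to 19.1% of all counts) were left out.

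For each comparison edgeR 4.0.16 (R 4.3.3) was run on the libraries of its groups alone: low genes were removed by filterByExpr (minimum count 10, minimum total 15), libraries were scaled by TMM, and the quasi-likelihood test was adjusted by Benjamini-Hochberg over all genes tested, with calls at 0.05. Standard errors are the log2 fold change divided by the square root of F, and 95% intervals are 1.96 standard errors wide on each side. Levels are CPM scaled by TMM over all 27 libraries, divided for comparison between genes by the length of the canonical transcript (GENCODE v44lift37, hg19). Promoter windows are from RefSeq, matched by symbol for 9 of 10 genes, LOXL2 being the other. The test was tried on simulated counts. Alternatives were DESeq2 1.42.0, a fit on all 27 libraries, median-of-ratios scaling, 2 other filters, a replicate block and leaving out each library.

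All 10 members are named whatever their values. Genes of the other lists are given by counts, and by name where called with the same sign in both lines at 2 or more densities or where among the 2 largest rises and falls with density in control; VEGFA in overconfluent MMP2sh1 cells and the low counts of COL1A2 and ELN were noted after their values were seen. Some genes of the marker lists and of the likeness ranking are not reported here. The members and lists were chosen with earlier results of these data known.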

Additional observations from a re-analysis of the deposited data

Results flagged for a closer look

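In 6 cases the change of a gene from subconfluent to overconfluent differed between a knockdown line and control by a test of the difference itself (edgeR's quasi-likelihood interaction, adjusted over all genes tested). In MMP2sh1 these were LOXL4 at 0.49 ± 0.08 (adjusted p = 0.00023), LOXL1 at 0.46 ± 0.10 (adjusted p = 0.00288) and P4HA1 at -0.45 ± 0.11 (adjusted p = 0.00696), on the log2 scale ± standard error. In MMP2sh2 they were LOXL4 at 0.38 ± 0.08 (adjusted p = 0.00145), LOXL2 at -0.38 ± 0.08 (adjusted p = 0.00145) and P4HA1 at -0.37 ± 0.10 (adjusted p = 0.0337). Both lines share the control libraries. The MMP2sh2 value of P4HA1 was -0.26 (adjusted p = 0.213) without overconfluent control replicate 3.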

How the results depend on the processing

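Of 1020 values of the 82 called results of single members under the alternatives, 926 kept direction and call, 94 lost the call and 0 changed sign; 22 results lost the call at least once, 12 of them outside the fits that left out a library. Of 1020 values of the 78 uncalled results, 30 became called. The number of called members in subconfluent MMP2sh2 cells was 2, and 4 with DESeq2 and 4 with at least 10 counts required in every library; in confluent MMP2sh2 cells it was 3, and 5 with that filter; between MMP2sh1 and MMP2sh2 in confluent cells it was 6, and 3 in the fit on all 27 libraries. The cause was not tested. Leaving out 1 library gave 1 to 4 in subconfluent MMP2sh1, 1 to 2 in subconfluent MMP2sh2, 2 to 4 in confluent MMP2sh2, 5 to 8 for confluent against subconfluent control cells, and 2 to 5, 3 to 5 and 2 to 4 between MMP2sh1 and MMP2sh2 in subconfluent, confluent and overconfluent cells. It gave 4 to 7 in overconfluent MMP2sh1, 3 to 5 in overconfluent MMP2sh2 and 7 to 10 for overconfluent against confluent control cells. A fit with 2 libraries in an arm assumes that they vary like the others.

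Replicate numbers did not pair the samples: deviations of libraries with the same number correlated between -0.025 and 0.029, and in 0 of 13 comparisons was every r over 0.1. With the replicate number as a block the counts of called members were 2, 3 and 6 in MMP2sh1, 2, 2 and 4 in MMP2sh2, 8, 10 and 8 for the 3 density comparisons in control, 8 and 8 for density in MMP2sh1 and MMP2sh2, 3 and 3 for the interactions, and 5, 6 and 4 between the knockdown lines. The 2 in subconfluent MMP2sh2 cells were not those without the block: P4HA1 was no longer called (adjusted p = 0.0575) and LOXL1 was (0.0353). In confluent MMP2sh2 cells PLOD1 was no longer called (0.0742), and between the lines in subconfluent cells PLOD1 was (0.0135). With 3 libraries a group, the 95% intervals given above do not set the size of difference that was detectable. They are not adjusted over all genes tested, whereas the calls are. PLOD3 in overconfluent MMP2sh2 cells had an interval of 0.06 to 0.29 and was not called (edgeR, adjusted p = 0.0693). The intervals can also be narrower than the unadjusted test allows. LOXL2 in subconfluent MMP2sh1 cells had -0.23 to -0.0024, with an unadjusted edgeR p of 0.0561.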
